A study of Mus musculus with 6 samples.

Results

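The genes described here belong to fatty acid oxidation and to the targets of PPARs, the peroxisome proliferator-activated receptors. All 36 genes of a list of enzymes, carriers, receptors and targets were found by symbol among the 37991 gene identifiers of the count tables, and 33 of the 36 passed a filter on low counts and were tested. The list was drawn up with earlier results of these data known. RNA had been sequenced from 6 whole-tissue samples of 3 HBUS mice (1119, 1192 and 1199) at an age of 60 weeks. In each mouse a serrated polyp was paired with normal tissue around it in the distal cecum. The HBUS strain expresses both HB-EGF, a ligand of the EGF receptor, and US28, a chemokine receptor of a herpesvirus, from transgenes in gut epithelium, and serrated polyps form in its cecum. Both tissues came from transgenic animals, so the surrounding cecum was not that of a wild-type mouse, and each mouse gave a single polyp sample.

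Fatty acids are taken up by carriers such as Cd36, held in the cytosol by binding proteins, and joined to coenzyme A by acyl-CoA synthetases. Carnitine acyltransferases then pass them into mitochondria, where the beta-oxidation enzymes remove acetyl-CoA units in repeated turns, while very long and branched chains are first shortened in peroxisomes. PPARs are nuclear receptors that are activated by fatty acids, pair with the receptor RXR and bind direct repeats of AGGTCA in DNA. Their targets include most enzymes of this route and Pdk4, which turns cells away from glucose oxidation. Absorptive cells of the cecum and colon oxidise short-chain fatty acids, above all butyrate, as a main fuel.

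In polyps, 4 of the 33 tested genes fell and 0 rose relative to the paired surrounding tissue. The genes that fell were Pdk4 (4.08-fold lower), Pck1 (3.67-fold lower), Fabp2 (2.31-fold lower) and Cpt1a (1.66-fold lower). A gene was called when its Benjamini-Hochberg adjusted p was under 0.05 in a quasi-likelihood test of edgeR that kept each mouse as a block and was fitted over 10960 genes. Of all genes tested, 1.04% were called lower in polyps and 1.72% higher. DESeq2 and limma-voom each called 5 members lower, adding Hadhb, and 0 higher, where 1.96% and 1.45% of all genes were called lower. At an unadjusted p under 0.05 in edgeR, 10 members were lower (6.27% of all genes) and 1, Acsl5, was higher (8.29% of all genes). The enzymes of the mitochondrial cycle itself had a median log2 fold change of -0.26 over 11 genes, against -0.02 over all genes tested.

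Before the levels, the sequence upstream of the genes that fell is shown, with that of Fabp1, which was not tested. PPAR targets are often defined by sites that the receptors bind. RefSeq promoter windows on GRCm38.p6 (300 bases, 250 before and 50 after the start site) were at hand for 32 of the 36 genes. The windows below are printed 5′ to 3′ on the gene's own strand. Capitals mark matches, on either strand, to AGGNCANAGGNCA (the spaced repeat that PPAR and RXR bind, and HNF4 proteins too), to a single AGGTCA, to CAAAGTNCA (an HNF4 type site), to TTACGTCA (a cAMP response element) and to TATAAA. A single AGGTCA can lie inside the repeat.
The windows are chr6:5496229-5496528 (minus strand) for Pdk4, chr2:173152823-173153122 (plus strand) for Pck1, chr19:3323051-3323350 (plus strand) for Cpt1a, chr3:122894822-122895121 (plus strand) for Fabp2 and chr6:71199629-71199928 (plus strand) for Fabp1.
Pdk4: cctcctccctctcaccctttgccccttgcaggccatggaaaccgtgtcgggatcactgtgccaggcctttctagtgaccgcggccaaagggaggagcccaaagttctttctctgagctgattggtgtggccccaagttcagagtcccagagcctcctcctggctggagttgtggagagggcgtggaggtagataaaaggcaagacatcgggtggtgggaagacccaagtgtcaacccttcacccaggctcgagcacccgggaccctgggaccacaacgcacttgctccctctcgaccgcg
Pck1: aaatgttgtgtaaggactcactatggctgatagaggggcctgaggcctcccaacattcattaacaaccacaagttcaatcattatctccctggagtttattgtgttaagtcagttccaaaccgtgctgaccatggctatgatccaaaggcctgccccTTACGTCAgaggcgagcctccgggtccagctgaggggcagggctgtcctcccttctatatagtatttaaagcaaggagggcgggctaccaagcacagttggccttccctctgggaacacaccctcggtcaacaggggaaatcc
Cpt1a: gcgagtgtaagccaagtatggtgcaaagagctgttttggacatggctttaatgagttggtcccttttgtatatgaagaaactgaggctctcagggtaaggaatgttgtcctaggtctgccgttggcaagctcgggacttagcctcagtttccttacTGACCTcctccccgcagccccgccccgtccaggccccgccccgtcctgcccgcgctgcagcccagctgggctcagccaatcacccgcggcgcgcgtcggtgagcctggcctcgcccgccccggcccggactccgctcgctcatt
Fabp2: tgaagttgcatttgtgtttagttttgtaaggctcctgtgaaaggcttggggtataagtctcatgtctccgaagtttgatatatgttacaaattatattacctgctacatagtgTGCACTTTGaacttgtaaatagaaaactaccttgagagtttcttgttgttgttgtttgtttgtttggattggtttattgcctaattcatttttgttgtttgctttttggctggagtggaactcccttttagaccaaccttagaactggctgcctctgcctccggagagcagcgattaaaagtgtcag
Fabp1: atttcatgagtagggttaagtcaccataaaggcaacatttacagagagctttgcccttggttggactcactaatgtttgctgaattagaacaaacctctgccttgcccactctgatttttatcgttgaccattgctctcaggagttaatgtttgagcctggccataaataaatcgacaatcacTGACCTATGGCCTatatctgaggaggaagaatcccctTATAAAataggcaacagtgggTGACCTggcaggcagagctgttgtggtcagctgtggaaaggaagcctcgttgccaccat
Of the 5 windows, only that of Fabp1 held the spaced repeat, as TGACCTATGGCCT on the printed strand, and it was the only one among the 32 genes with a window. In the full set 0.381% of 32851 windows held it. The strict repeat AGGTCANAGGTCA was in 0 windows of the 32 genes and in 0.0396% of all windows. A single AGGTCA was found for 8 of the 32 genes (Acadm, Acadvl, Cd36, Cpt1a, Echs1, Fabp1, Plin2 and Pparg) and in 16.3% of all windows. Fabp2 was the only one with the HNF4 type letters (1.41% of all windows) and Pck1 the only one with the cAMP element (0.499% of all windows), while TATAAA was found for Fabp1 and Pparg (13.6% of all windows). These are matches of letters, and binding was not measured. Sites outside the 300-base windows, farther upstream or within the genes, were not searched, so a window without a match does not show that a gene lacks such a site. The Pdk4 window held no match to any of these motifs.

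Levels are normalized CPM (a gene's count relative to the effective size of its library), with the mean ± SD over 3 mice. Each log2 fold change compares polyp with surrounding tissue and carries ± a standard error derived from the edgeR statistic. The effective size is the library size times a TMM factor. This factor ran from 0.593 in the surrounding tissue of mouse 1199 to 1.43 in the polyp of mouse 1192. Whether the groups of a gene overlap can depend on this scaling. Total counts ran from 6632645 to 13350119 per library, of which the mitochondrial rRNAs took 46.3% to 75.3%. The samples were whole tissue, so fewer cells of a type and less RNA per cell cannot be told apart. Markers of several cell types differed between the tissues. Of 23 tested absorptive colonocyte genes 7 fell (median log2 fold change -0.33), and of 8 smooth muscle genes 2 fell (median -2.11). Of 8 goblet cell genes 3 fell, the secretory genes Clca1, Zg16 and Fcgbp, and all 8 log2 fold changes were negative (median -0.58). The goblet cell list summed to 2747 to 3557 CPM in surrounding tissue and 1331 to 2708 CPM in polyps. Of 10 fibroblast genes 6 rose (median 1.67), while of 23 general epithelial genes 3 rose, the keratin genes Krt8, Krt18 and Krt19, and 0 fell (median 0.13). The summed level of the colonocyte list was 15065 to 22355 CPM in surrounding tissue and 10975 to 16284 CPM in polyps. The smooth muscle list summed to 188.1 to 217.6 CPM in surrounding tissue and 23.1 to 84.0 CPM in polyps, with Myocd at 0 counts in all 3 polyps. The part of these cell types in the differences reported here was not tested.

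**Figure D1:**
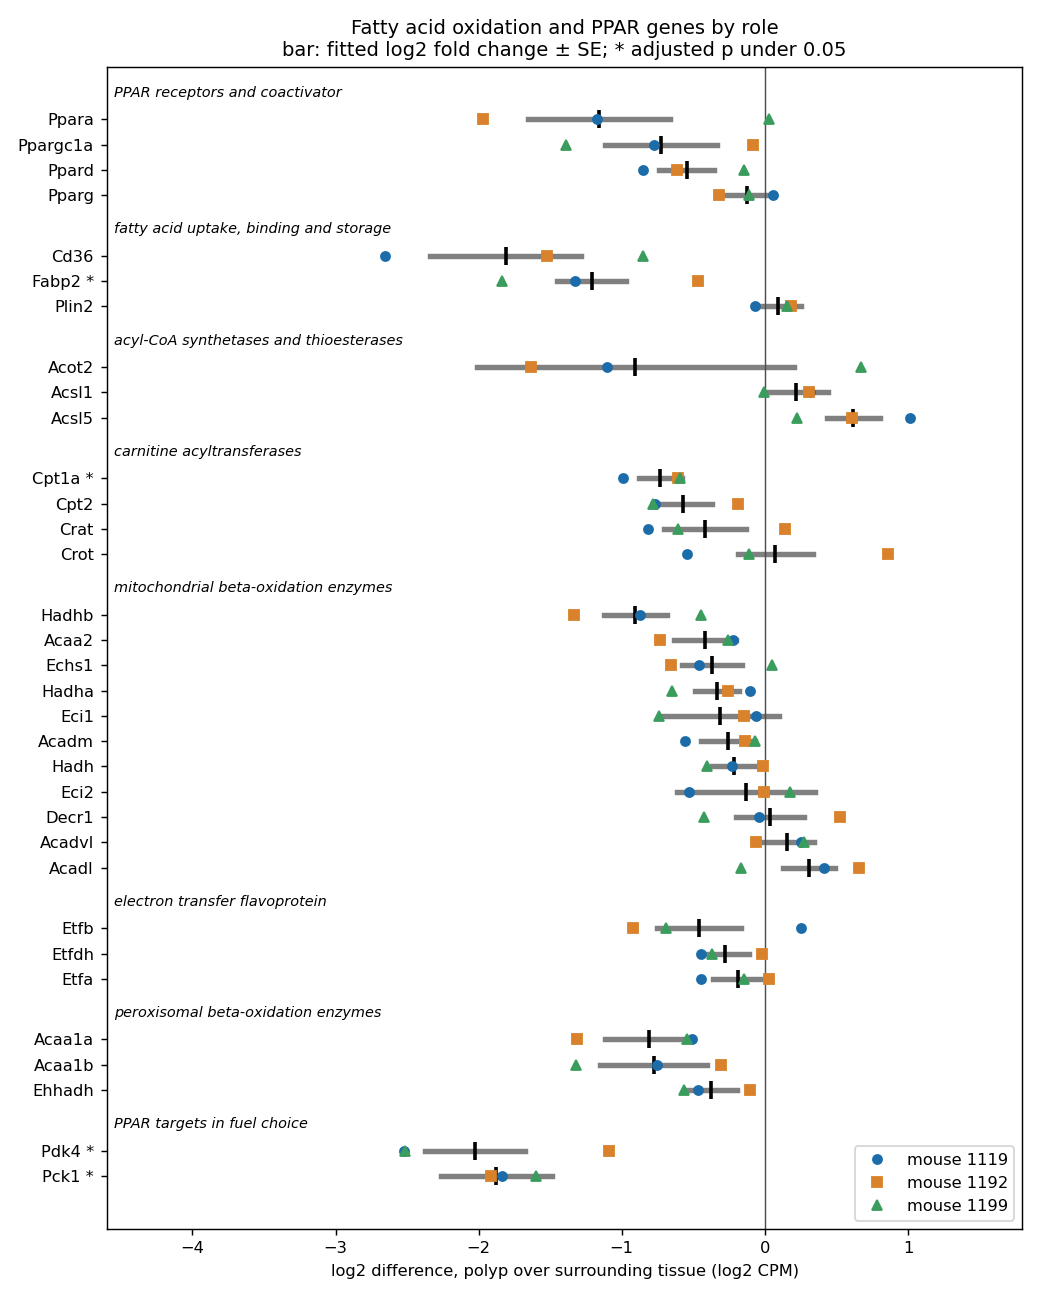
Log2 difference of polyp over surrounding tissue for the 33 tested genes, grouped by role. Coloured points are the 3 mice, black ticks with grey bars the fitted log2 fold change ± SE, and asterisks mark the 4 genes that passed; 26 of the 33 fitted values lie below 0, and Pdk4 and Pck1 lie farthest to the left.

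Among the PPAR targets in fuel choice, both tested genes fell. Pdk4 (ENSMUSG00000019577) encodes a kinase that switches off the pyruvate dehydrogenase complex and so spares glucose when fat is burned. It stood at 14.9, 27.3 and 37.6 CPM in the surrounding tissue of mice 1119, 1192 and 1199, and at 2.42, 12.7 and 6.40 CPM in their polyps. In normalized CPM every polyp was below every surrounding sample, although the polyp of mouse 1192 came close to the surrounding tissue of mouse 1119. This separation depends on the TMM scaling. Before it, that polyp had 155 Pdk4 counts of 8525065 in tested genes, and that surrounding sample had 157 of 9747347. The log2 fold change was -2.03 ± 0.35 (adjusted p = 0.0232), and the polyp of mouse 1192 kept the most Pdk4, with 2.14-fold less than its surrounding tissue against 6.15-fold and 5.88-fold less in mice 1119 and 1199. The kinase genes Pdk1, Pdk2 and Pdk3 of the same family, singled out after their values were seen, had log2 fold changes of 0.05, -0.56 and -0.28 and did not pass (adjusted p = 0.932, 0.393 and 0.758). The Pdk4 call was lost without the mouse as a block (adjusted p = 0.204), without mouse 1119 (0.0862) and without mouse 1199 (0.195).

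Pck1 (ENSMUSG00000027513) encodes the cytosolic phosphoenolpyruvate carboxykinase, which feeds the making of glucose and of glycerol for fat. Its level was 5.30, 12.03 and 9.47 CPM in surrounding tissue and 1.33, 3.04 and 2.99 CPM in polyps, in the same order of mice. The groups did not overlap, and the 3 mice lost similar proportions, 3.99-fold, 3.95-fold and 3.17-fold. The log2 fold change was -1.88 ± 0.39 (adjusted p = 0.0436), on 11 to 37 counts per polyp library. Leaving out mouse 1119, 1192 or 1199 gave adjusted p = 0.163, 0.0813 and 0.226, and the fit without the block gave 0.114. Angptl4, a secreted inhibitor of lipoprotein lipase and a PPAR target in many tissues, had 0 to 22 counts per library and was not tested.

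Among the genes of fatty acid uptake, binding and storage, 1 of 3 tested genes fell. Fabp2 (ENSMUSG00000023057), the intestinal fatty acid binding protein that carries fatty acids through the cytosol of absorptive cells, had the highest level per length of all members, with 319 CPM per kilobase of exon in surrounding tissue. Acadl came next at 34.25 CPM per kilobase, on exon lengths taken from GENCODE M21. Fabp2 was measured at 217, 183 and 524 CPM in surrounding tissue and at 86.3, 133 and 147 CPM in polyps. All polyps were lower than all surrounding samples, and the surrounding tissue of mouse 1199 stood far above the other samples. This library also had the largest share of mitochondrial rRNA. Its TMM factor, which scales the library size, was 0.593, against 0.973 to 1.43 in the other libraries. A low factor raises the CPM of a library, so the height of this sample depends in part on the scaling. The log2 fold change was -1.21 ± 0.24 (adjusted p = 0.0395), with the smallest loss in mouse 1192 (1.38-fold) and the largest in mouse 1199 (3.57-fold). Without mouse 1119 or 1199 it did not pass (adjusted p = 0.218 and 0.209), nor without the block (0.226). Fabp1, the liver type of the binding protein, had 0 counts in 5 of the 6 libraries and 2 counts in the polyp of mouse 1199, so it was at or under the floor of 3 counts (0.214 to 0.676 CPM). The spaced repeat printed above for Fabp1 therefore stands upstream of a gene that was barely detected in this tissue.

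Cd36, the fatty acid translocase, was low throughout, at 7.20, 11.2 and 2.48 CPM in surrounding tissue and 0.967, 3.78 and 1.28 CPM in polyps. Each polyp was below its own surrounding tissue, but the groups overlapped, and the log2 fold change of -1.81 ± 0.53 did not pass (adjusted p = 0.134). Cd36 is also made by fat cells, endothelium and macrophages, whose lists had median log2 fold changes of -1.04, 1.26 and 0.51 with 0 genes called in edgeR and 0, 3 and 2 genes higher at an unadjusted p under 0.05. The adipocyte markers Adipoq, Plin1 and Lep were at 0 counts in both samples of mouse 1199 and above 0 in the surrounding tissue of mice 1119 and 1192, where Adipoq was at 1.04 and 3.20 CPM. The whole list of 10 adipocyte genes, of which 5 were tested and 0 passed, summed to 136.9, 175.7 and 175.8 CPM in the surrounding tissue of mice 1119, 1192 and 1199 and to 126.2, 180.1 and 175.2 CPM in their polyps. Most of each sum was Adipor2, a receptor gene that many tissues express, and Cidec, Plin4, Cfd and Lipe had counts above 0 in both samples of mouse 1199. The part of fat cells in the Cd36 values was not tested. Plin2, which coats lipid droplets and is used as a marker of stored fat, was at 36.5 ± 3.43 CPM in surrounding tissue and 39.0 ± 6.44 CPM in polyps (log2 fold change 0.09 ± 0.17, adjusted p = 0.855).

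**Figure D2:**
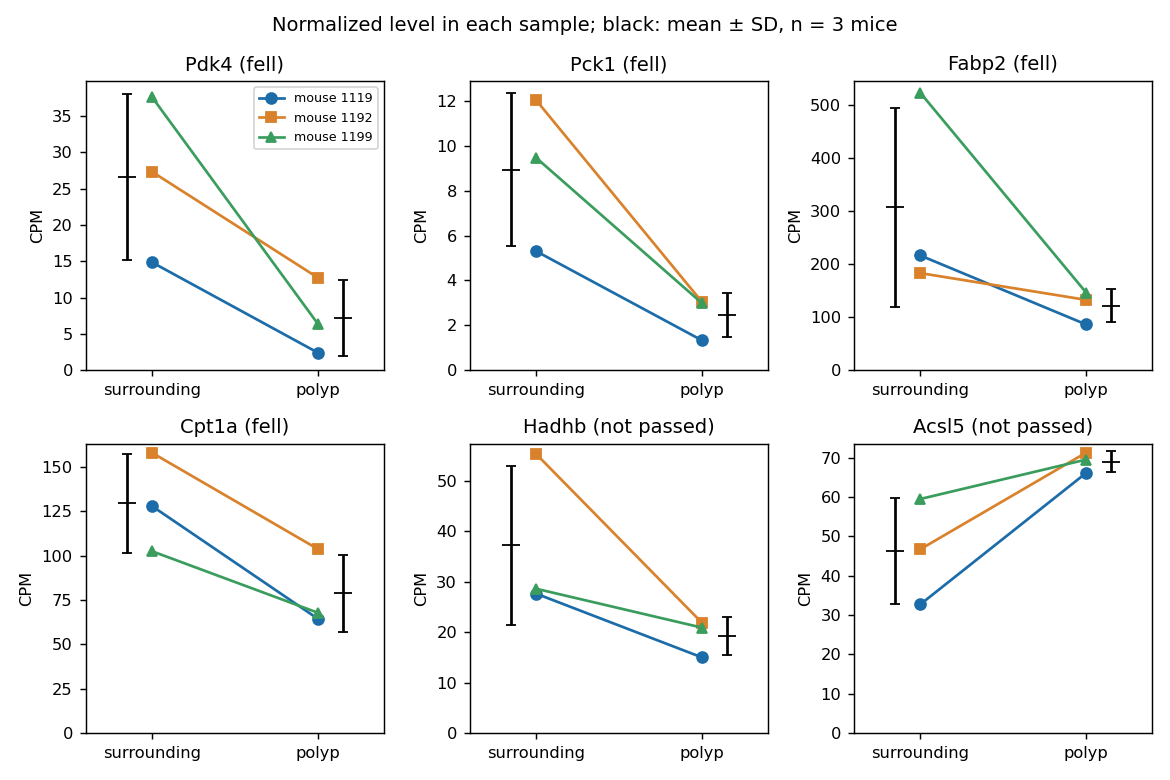
Normalized level (CPM) of 6 genes in surrounding tissue and polyp, with a line for each mouse and the mean ± SD in black. Pdk4, Pck1, Fabp2 and Cpt1a fell, Hadhb was lower in every polyp without passing (adjusted p = 0.0788), and Acsl5 was higher in every polyp without passing (adjusted p = 0.143).

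Of the acyl-CoA synthetases, which activate fatty acids, and the thioesterases, 3 were tested, 0 passed in edgeR, DESeq2 and limma-voom, and 2 had positive log2 fold changes. Acsl5, the mitochondrial and reticulum-bound synthetase of intestinal epithelium, was at 32.7, 46.7 and 59.5 CPM in surrounding tissue and 66.1, 71.3 and 69.5 CPM in polyps. Every polyp was above every surrounding sample, and the 3 polyps lay close together. With a log2 fold change of 0.62 ± 0.18, Acsl5 did not pass (adjusted p = 0.143). Acsl5 was the only tested member with all polyps above all surrounding samples, a pattern that 9.84% of all genes tested showed. Its exons overlap those of Zdhhc6 on the opposite strand over 8.31% of their length in GENCODE M21, and whether the counting used strand is not given in the sources used here. Acsl1 was at 16.7 ± 1.81 CPM in surrounding tissue and 19.5 ± 4.12 CPM in polyps (log2 fold change 0.22 ± 0.22). The thioesterase genes Acot1 and Acot2, which split acyl-CoA again, were near the floor, with 0 to 19 counts per library. They share 19.2% and 27.7% of their transcript 50-mers with other genes, mostly with each other, so their values are uncertain. Acot1 was not tested, and Acot2 did not pass (log2 fold change -0.91 ± 1.11).

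Of the 4 carnitine acyltransferases, 1 fell. Cpt1a (ENSMUSG00000024900) makes acylcarnitine on the outer mitochondrial membrane, the step that sets how fast long-chain fatty acids enter. It was at 128, 158 and 103 CPM in surrounding tissue and 64.4, 104 and 67.8 CPM in polyps. Each mouse had less in its polyp, by 1.99-fold, 1.52-fold and 1.51-fold, while the polyp of mouse 1192 was level with the surrounding tissue of mouse 1199, so that the groups just overlapped. The log2 fold change was -0.73 ± 0.15 (adjusted p = 0.0395). Adjusted p was 0.194, 0.0523 and 0.164 without mouse 1119, 1192 or 1199 and 0.204 without the block. Cpt2, which turns acylcarnitine back into acyl-CoA inside, was at 31.7 ± 3.11 CPM in surrounding tissue and 21.2 ± 2.97 CPM in polyps. All its polyp values were below all surrounding values, and the log2 fold change of -0.57 ± 0.21 did not pass (adjusted p = 0.232). Crat, for short chains, and Crot, for chains shortened in peroxisomes, had log2 fold changes of -0.42 ± 0.28 and 0.07 ± 0.26. For both genes, mice 1119 and 1199 had less in the polyp and mouse 1192 had more, with Crot at 28.1 CPM in surrounding tissue and 51.2 CPM in the polyp of mouse 1192.

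None of the 11 mitochondrial beta-oxidation enzymes passed in edgeR, where 1 was lower at an unadjusted p under 0.05 (Hadhb), and DESeq2 and limma-voom each called Hadhb. Of the 11 log2 fold changes 8 were negative, from -0.91 (Hadhb) to -0.13 (Eci2), and 3 were positive (Decr1, Acadvl and Acadl). Hadha and Hadhb encode the alpha and beta subunits of the trifunctional protein, which carries out the last 3 steps on long chains. Hadha was at 138, 157 and 190 CPM in surrounding tissue and 129, 132 and 121 CPM in polyps (log2 fold change -0.33 ± 0.15, adjusted p = 0.370). For Hadhb the values were 27.7, 55.4 and 28.6 CPM in surrounding tissue and 15.0, 21.9 and 20.9 CPM in polyps (log2 fold change -0.91 ± 0.22, adjusted p = 0.0788). Both genes had every polyp below every surrounding sample in normalized CPM, as 9 of the 33 tested members did and 8.58% of all genes tested. For these genes the separation depends on the TMM scaling. Before it, the surrounding library of mouse 1199 held 842 Hadha and 127 Hadhb counts of 7483823 in tested genes. The polyp library of mouse 1192 held 1603 and 266 of 8525065. The ratio of Hadha to Hadhb counts was 4.99, 2.84 and 6.63 in surrounding tissue and 8.58, 6.03 and 5.78 in polyps, so it was higher in the polyp of mice 1119 and 1192 and not of mouse 1199. Adjusted p for Hadhb was 0.0376 in DESeq2, 0.0348 in limma-voom, 0.0331 with a filter at a mean of 5 CPM and 0.00287 with no filter. Of the transcript 50-mers of Hadhb, 19.7% also occur in other genes, most of them in the gene model Gm13910, and reads from such stretches could not be followed.

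Hadha and Hadhb lie head to head, and their RefSeq promoter windows on GRCm38.p6 share 228 bases. The Hadhb window, chr5:30155003-30155302 on the plus strand, is shown because most of it also lies in the window of the other subunit gene, with the shared bases in capitals.
Hadhb: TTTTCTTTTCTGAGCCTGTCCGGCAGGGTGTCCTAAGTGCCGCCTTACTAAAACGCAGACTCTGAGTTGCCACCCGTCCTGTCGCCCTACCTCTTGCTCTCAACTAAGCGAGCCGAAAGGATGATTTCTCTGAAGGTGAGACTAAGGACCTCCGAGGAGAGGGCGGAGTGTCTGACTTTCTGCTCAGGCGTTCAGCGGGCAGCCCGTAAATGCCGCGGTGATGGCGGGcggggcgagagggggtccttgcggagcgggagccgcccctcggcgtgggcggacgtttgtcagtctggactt
The Hadha window runs on the minus strand at chr5:30154931-30155230, and the start site of Hadha lies outside the bases printed. None of the motifs named above matched the Hadhb window.

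The other enzymes of the cycle had log2 fold changes between -0.42 and 0.31. Acadl, the long-chain acyl-CoA dehydrogenase, was at 60.9, 52.5 and 92.6 CPM in surrounding tissue and 81.2, 82.8 and 82.6 CPM in polyps, with the polyp values inside the range of the surrounding ones. Acadvl, which opens the cycle for the longest chains, was at 26.4 ± 4.46 and 29.3 ± 2.29 CPM in surrounding tissue and polyps. Its exons overlap those of Dvl2 on the opposite strand over 42.9% of their length, which leaves its counts uncertain. Acadm, for medium chains, was at 32.9 ± 2.21 CPM in surrounding tissue and 27.7 ± 3.44 CPM in polyps (log2 fold change -0.26 ± 0.19). The hydratase Echs1, the dehydrogenase Hadh and the thiolase Acaa2 had log2 fold changes of -0.37, -0.21 and -0.42. For the enzymes that handle double bonds, Eci1, Eci2 and Decr1, they were -0.32, -0.13 and 0.04. The adjusted p of these members ran from 0.448 to 0.965.

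The electron transfer flavoprotein takes electrons from the acyl-CoA dehydrogenases and hands them through its own dehydrogenase to ubiquinone. Etfdh was at 49.1, 48.6 and 47.8 CPM in surrounding tissue and 36.03, 47.9 and 37.0 CPM in polyps, so the surrounding samples lay close together and the polyp of mouse 1192 was nearly level with them. For Etfdh the fitted log2 difference was -0.28 ± 0.17 (adjusted p = 0.526). Etfa and Etfb, the subunits of the flavoprotein, had -0.19 ± 0.17 and -0.46 ± 0.29. In GENCODE M21, 58.2% of the exon length of Etfb lies under other gene models, mostly Gm45233 on the same strand, so its count may miss reads. All 3 genes of this group had 0 calls in edgeR, DESeq2 and limma-voom, and 0 at an unadjusted p under 0.05.

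All 3 peroxisomal enzymes were lower in the polyp of every mouse, a pattern that 18 of 33 tested members and 18.6% of all genes tested showed, and none of them passed. The opposite, a higher level in the polyp of every mouse, was seen in 1 tested member and 19.6% of all genes. Acaa1a, a peroxisomal thiolase, was at 14.7, 17.3 and 11.7 CPM in surrounding tissue and 10.3, 6.83 and 7.96 CPM in polyps, without overlap (log2 fold change -0.81 ± 0.30, adjusted p = 0.248). Its near copy Acaa1b had -0.78 ± 0.37. The thiolase genes share 17.1% and 39.6% of their transcript 50-mers with other genes, mostly with each other, so how the counts divide between them is uncertain. Ehhadh, the bifunctional enzyme that carries the middle steps in peroxisomes, was at 27.7, 49.98 and 41.7 CPM in surrounding tissue and 19.9, 46.4 and 28.2 CPM in polyps. The groups overlapped widely, since mouse 1192 was high in both tissues (log2 fold change -0.37 ± 0.18, adjusted p = 0.393). DESeq2 and limma-voom called 0 of the 3, and Acaa1a alone was under 0.05 before adjustment in edgeR.

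The receptors themselves did not pass, and 2 of the 4 genes of their group (Ppard and Ppara) were lower at an unadjusted p under 0.05 in edgeR; DESeq2 and limma-voom called 0. Ppard was at 50.2, 42.6 and 37.6 CPM in surrounding tissue and 27.7, 27.8 and 34.0 CPM in polyps. The groups did not overlap, with a narrow gap between the polyp and the surrounding tissue of mouse 1199 (log2 fold change -0.55 ± 0.19, adjusted p = 0.215). Pparg, the PPAR known for its high level in colonic epithelium, was at 58.2, 75.3 and 55.4 CPM in surrounding tissue and 60.6, 60.3 and 51.3 CPM in polyps. The groups overlapped in part, with the surrounding tissue of mouse 1192 above every polyp and the polyp of mouse 1199 below every surrounding sample (log2 fold change -0.13 ± 0.15, adjusted p = 0.773). Per kilobase of exon, surrounding tissue had 21.3 CPM of Pparg, 5.79 of Ppard and 2.00 of Ppara. Ppara was lower in the polyps of mice 1119 and 1192 (2.66 against 6.25 CPM and 3.37 against 13.8 CPM) and level in mouse 1199 (2.99 against 2.93 CPM), and did not pass (adjusted p = 0.327). Ppargc1a, a coactivator of PPARs and of mitochondrial genes, was at 8.02 ± 3.10 CPM in surrounding tissue and 5.57 ± 4.69 CPM in polyps (adjusted p = 0.472).

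Over the 33 tested members the median log2 fold change was -0.37, and 26 of the 33 values were negative, against 51.6% of all genes tested. Within mice 1119, 1192 and 1199 the members' median paired difference was -0.51, -0.19 and -0.41, with 27, 25 and 26 of the 33 lower in the polyp. Mouse 1192, whose median was nearest to 0, also had the median nearest to 0 in the lists of smooth muscle (-0.99, against -3.61 and -1.55 in mice 1119 and 1199), absorptive colonocytes (-0.27, against -0.77 and -0.39) and goblet cells (-0.02, against -1.39 and -0.96). In other lists mouse 1192 had the lowest median, with -0.29 for citric acid cycle enzymes (against -0.16 and -0.13), -0.28 for mitochondrial import and carriers (against 0.13 and -0.05) and -0.33 for the further PPAR targets and partners (against -0.21 and 0.02). Scaled to the geometric mean of 23 epithelial genes, which shifts the median of all genes by -0.22, the members' median became -0.60 and the same 4 genes fell (1.8% of all genes were called lower). Scaled to 17 citric acid cycle enzymes, which shifts it by 0.17, the median became -0.21 and 1 of the 4, Pdk4, still passed (0.666% of all genes were called lower). Without robust estimates of the spread Pdk4 was again the 1 that passed (0.794% of all genes).

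**Figure D3:**
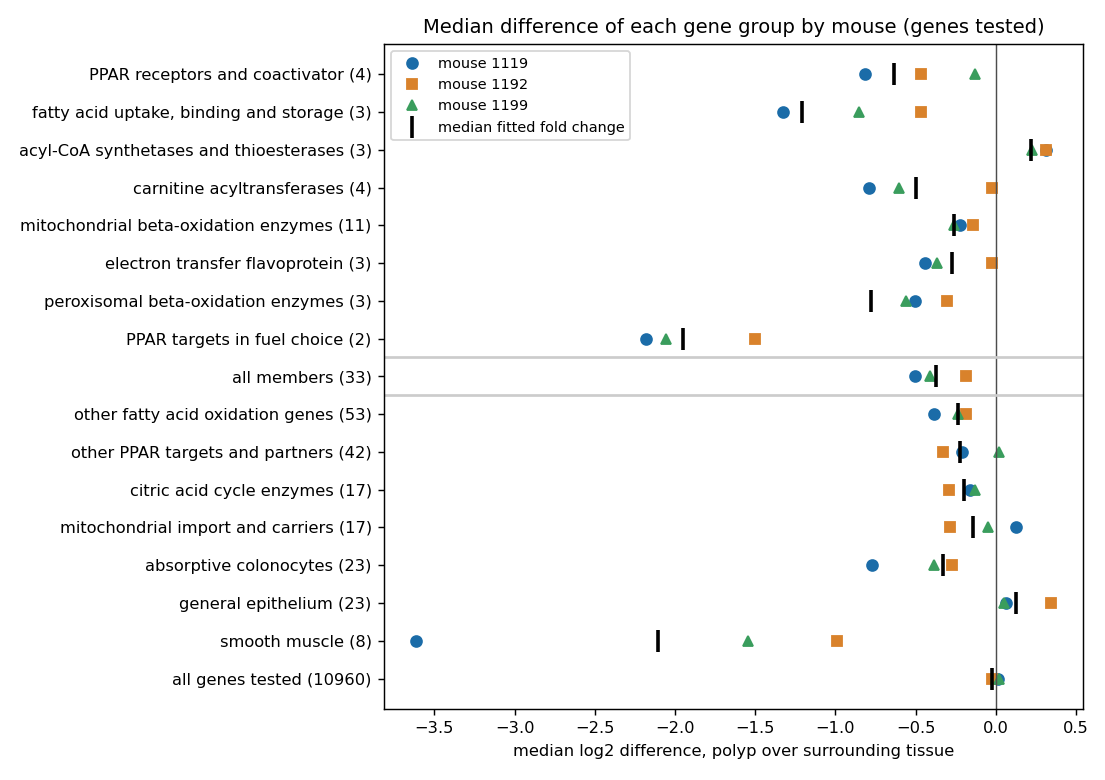
Median log2 difference of polyp over surrounding tissue for each role group, the members together and the comparison lists, with the number of genes tested in brackets. Coloured points are the mice and black ticks the median fitted fold change; the fuel choice group lies at -1.95 and the mitochondrial enzymes at -0.26, near the citric acid cycle enzymes at -0.20.

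Of the other genes of this metabolism, in lists of 62 further fatty acid oxidation genes and 57 further PPAR targets and partners, 118 of 119 were matched and 95 tested, and 2 fell and 0 rose. In this test 1.04% of all genes were called lower and 1.72% higher. At an unadjusted p under 0.05, 16 were lower (6.27% of all genes) and 3 higher (8.29% of all genes). DESeq2 and limma-voom called 3 lower each (1.96% and 1.45% of all genes) and 0 higher. The genes that fell act in peroxisomes. Phyh (ENSMUSG00000026664), the hydroxylase that starts the breakdown of branched phytanic acid, was at 42.9, 67.2 and 56.1 CPM in surrounding tissue and 22.4, 23.5 and 25.7 CPM in polyps. Its polyp values lay in a narrow band well below every surrounding sample (log2 fold change -1.20 ± 0.18, adjusted p = 0.0153), and it passed in 13 of 14 alternatives, not without mouse 1199 (adjusted p = 0.0979). Cat (ENSMUSG00000027187), the catalase that removes the peroxide made by peroxisomal oxidation, was at 41.5, 60.1 and 46.7 CPM in surrounding tissue and 22.0, 35.4 and 29.2 CPM in polyps, without overlap. Its log2 fold change was -0.79 ± 0.16 (adjusted p = 0.0443), and without mouse 1119, 1192 or 1199 adjusted p was 0.198, 0.0749 and 0.204.

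Among the 42 further PPAR targets and partners tested, 0 passed in edgeR and DESeq2 and 1 in limma-voom (Lpl). At an unadjusted p under 0.05 in edgeR, 6 were lower (6.27% of all genes) and 1 higher (8.29% of all genes). The 4 with the smallest p were Lpl, Fabp4, Cyp4b1 and Slc25a42. Lpl, the lipoprotein lipase, was at 15.9, 26.2 and 6.76 CPM in surrounding tissue and 6.77, 12.2 and 3.70 CPM in polyps (log2 fold change -1.08 ± 0.28, adjusted p = 0.0905). Fabp4, the binding protein of fat cells and capillaries, had -1.60 ± 0.49, and Cyp4b1, a fatty acid hydroxylase, -2.22 ± 0.70. For Lpl, Fabp4 and Cyp4b1 each polyp was below its own surrounding tissue, but the groups overlapped. In mouse 1199 Cyp4b1 was near the floor, at 0.676 CPM (3 counts) in surrounding tissue and 0.569 CPM (4 counts) in the polyp. Slc25a42, the mitochondrial coenzyme A carrier, had every polyp below every surrounding sample (log2 fold change -1.39 ± 0.45, adjusted p = 0.173).

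For comparison, 0 of 17 citric acid cycle enzymes passed in edgeR, DESeq2 and limma-voom, with 1 lower at an unadjusted p under 0.05 in edgeR. Their median log2 fold change was -0.20, and 14 of the 17 were negative. Of 17 tested genes of mitochondrial import and carriers 1 fell, the outer membrane channel gene Vdac3, named here after its value was seen (log2 fold change -0.77, adjusted p = 0.0449), and the median was -0.14. The carnitine, beta-oxidation and electron transfer members, 18 genes in all, had a median of -0.30. Their difference from these lists was not tested.

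**Figure D4:**
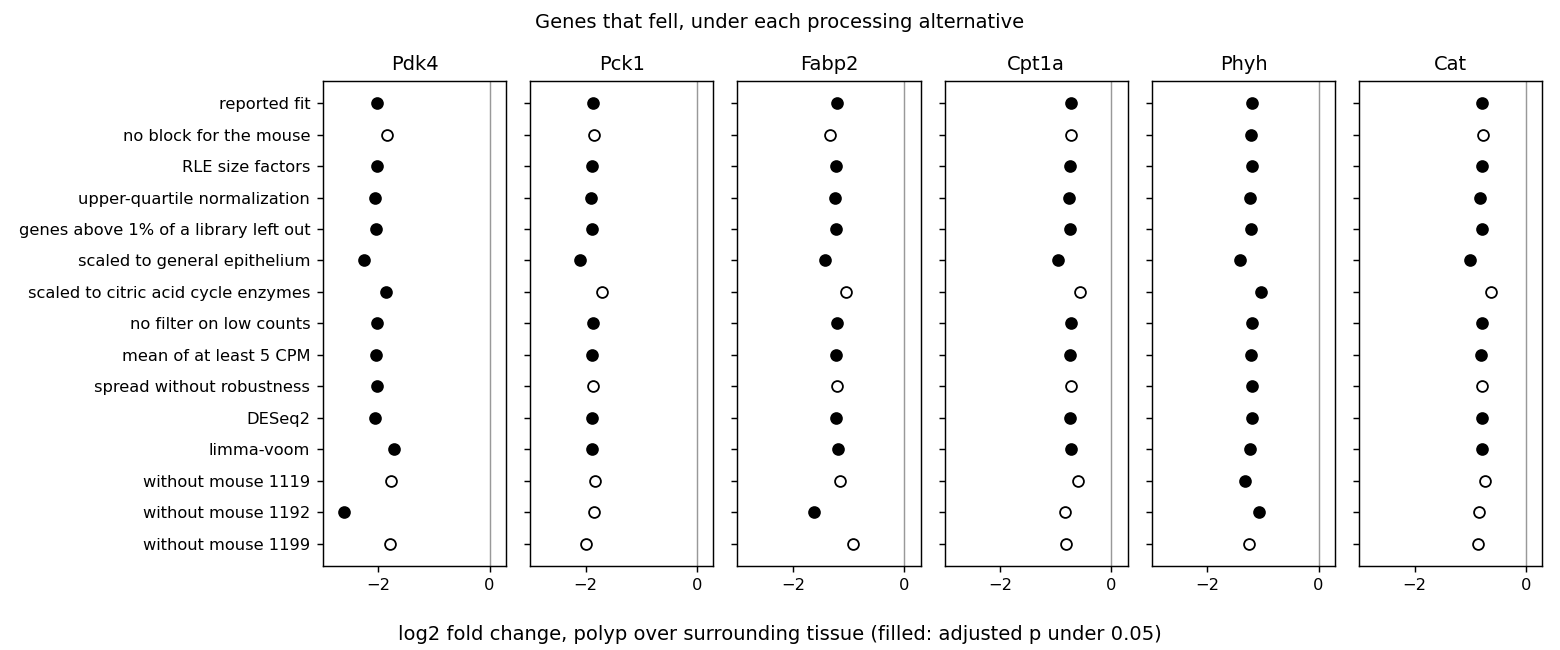
Log2 fold change of the 4 members that fell and of Phyh and Cat in the reported fit and under 14 alternatives; filled points have adjusted p under 0.05. All values lie below 0, and Pdk4 passed in 11 alternatives, Fabp2 in 9, and Pck1, Cpt1a and Cat in 8 each.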

How the data were processed

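RNA was extracted from whole tissue, and per the labels' protocols a kit that depletes host RNA (MICROBEnrich) and then a kit that depletes rRNA were applied before paired-end libraries were made. The labels give this protocol for all 6 samples, and its effect on the mouse counts was not tested. The authors deposited raw read counts for each gene, which carry no normalization per the file headers. The submitters' processing notes list the tools HTSeq 0.5.3p9, TopHat2 2.0.7 and Bowtie 0.12.9, and settings, strandedness, genome build and annotation were not given in the sources used here.

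Symbols came from GENCODE M21 (32919 of 37991 identifiers). The main test was edgeR 4.0.16 (R 4.3.3) quasi-likelihood with robust spread, TMM, filterByExpr (minimum count 10) and the mouse as a block, with 2 residual and a median of 6.63 prior degrees of freedom. The design text calls the samples paired, and titles give the mouse number. Deviations from the tissue means correlated at 0.0719, 0.127 and 0.159 within mice 1119, 1192 and 1199 and at -0.12 to -0.00294 between mice. The deviations of a tissue cancel by construction, so positive values within mice force negative values on balance between mice. The values between mice are therefore no separate evidence of pairing. No 2 libraries of a tissue were alike within counting error (chi-square divided by its degrees of freedom was 21.6 to 77.9). The procedure was tested on simulated counts drawn with no difference between mice, so the use of the mouse as a block was not tested there. Paired log2 differences by mouse used a prior count of 2. DESeq2 1.42.0, limma-voom 3.58.1 and 12 other alternatives were run. Figures and tables were made with Python 3.11.15.

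The members and lists were chosen with earlier results of these data known. Values in every sample are given for the members that passed and, in each role group, for the members with the smallest p and the highest mean; of the wider lists, called genes or the 4 with the smallest p are named. The result of 1 further gene is not reported here. Depth ran from 6632645 to 13350119 counts per library, and floors of 3 counts cover counting error only.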

Additional observations from a re-analysis of the deposited data

How the results depend on the processing

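The direction of Pdk4, Pck1, Fabp2, Cpt1a, Phyh and Cat was negative in all 14 alternatives. With no replicate block (the fit that ignores which samples share a mouse) 0 members, 1 other pathway gene and 87 of all genes passed, against 4, 2 and 303 as reported. With 1 mouse left out, members that fell numbered 0 to 2, other pathway genes that fell 0 to 2, and all genes that changed 83 to 281. The members' median log2 fold change ran from -0.42 to -0.36 in these fits. Scaled to epithelial genes the median was -0.60 and 4 other pathway genes fell (1.8% of all genes were called lower). Scaled to citric acid cycle enzymes the median was -0.21, 1 member and 1 other pathway gene fell, and 1 other pathway gene rose. In that fit 0.666% of all genes were called lower and 2.89% higher. Without a filter on low counts 6 members fell, adding Hadhb and Cd36 (adjusted p = 0.0458 for Cd36 in edgeR), and 1 rose (Acsl5). In the fit without a filter 8 other pathway genes fell, 1 rose, and 753 of all genes changed. Of the 21370 genes tested there, 1.46% were called lower and 2.07% higher. With a mean of at least 5 CPM 1 other pathway gene rose (3.64% of all genes were called higher). Without robust spread estimates 1 member and 1 other pathway gene fell (0.794% of all genes were called lower). DESeq2 called 541 of all genes.

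Of 487 values of 35 genes under these alternatives, 443 kept direction and side of the threshold, 27 lost the call, 6 gained it and 11 turned sign. The sign turned only for members near 0. Scaled to epithelial genes, Plin2 was at -0.13, Acsl1 at -0.00699, Crot at -0.15, Acadvl at -0.0681 and Decr1 at -0.19. Scaled to citric acid cycle enzymes, Pparg was at 0.0424 and Eci2 at 0.0356. With upper-quartile normalization Decr1 was at -0.000824. With 1 mouse left out, Eci2 ran from -0.2922 to 0.0777 (positive without mouse 1119), Crot from -0.38 to 0.392 and Decr1 from -0.27 to 0.234 (both negative without mouse 1192). The cause was not tested. With 3 mice, the reported fit has 2 residual degrees of freedom, and the fits that leave out a mouse have fewer, which limits these tests. Acot2, Cd36, Ppara and Eci2, all of low count, had the largest standard errors of the tested members (1.11, 0.53, 0.49 and 0.48). For Pck1, also of low count, it was 0.39.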

Other observations

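Peroxisomal genes of the further fatty acid oxidation list were looked at together after Phyh and Cat had been seen to fall, so the group is a description with no test. The log2 fold change was -0.50 ± 0.17 for Hsd17b4, a multifunctional enzyme, and -0.43 ± 0.15 for Abcd3, an importer of fatty acyl-CoA. Ech1 and Acbd5, a dienoyl-CoA isomerase gene and a peroxisomal tether gene, had -0.43 and -0.44. For Hsd17b4, Ech1 and Acbd5 every polyp was below every surrounding sample, as in 8.58% of all genes tested. The import receptor genes Pex5 and Pex7 had 0.32 and 0.18, and Scp2, the peroxisomal thiolase and sterol carrier gene, -0.26 ± 0.16. None of these passed in edgeR (adjusted p 0.198 to 0.855).

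The genes that follow were singled out after their values were seen. Hnf4a, a nuclear receptor of gut epithelium that binds the same spaced repeat, was at 424, 429 and 459 CPM in surrounding tissue and 387, 374 and 391 CPM in polyps (log2 fold change -0.19 ± 0.13, adjusted p = 0.582). Rxra, the partner of PPARs, had -0.17 ± 0.21. The thioesterase gene Acot9 was at 19.1, 10.8 and 26.1 CPM in surrounding tissue and 33.5, 29.0 and 36.7 CPM in polyps, with every polyp above every surrounding sample, as in 9.84% of all genes tested (log2 fold change 0.91 ± 0.23, adjusted p = 0.088).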
